A study of Mus musculus with 6 samples.

Results

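The corneodesmosome genes and the genes of the enzymes that cut corneodesmosomes were followed in dental epithelial organoids (DEOs) grown in 4 media. The 10 genes were chosen by name from the 47360 gene symbols of the expression table. They were Cdsn, Dsg1a and Dsc1 for the junction itself, and Klk5, Klk6, Klk7, Klk8 and Klk14 for its serine proteases. Spink5 was taken for an inhibitor of such proteases, and Asprv1 for an aspartic protease of the same layer. All 10 had an entry, and each had 1. DEOs were grown for 14 days from adult dental epithelial stem cells of the incisor apical buds of wild-type, 9-week-old female C57BL/6J mice. Every medium held Wnt3a- and R-spondin1-conditioned media at 50% and 5%, EGF at 100 µg per ml, Noggin at 200 µg per ml, N-acetylcysteine and Y27632, and this mixture is called +N. The +ND medium had in addition the Notch inhibitor dibenzazepine (DBZ), the +NF medium had FGF10 (100 µg per ml), and the +NFD medium had both. The labels give DBZ as 10 µM and the methods text as 10 mM. Media with Jagged1 were not analysed here. There was 1 bulk RNA library per medium, so no difference between media has a replicate check, no p-value is given, and "higher" and "lower" describe these libraries only. How many mice or wells went into a library is not stated. The values are FPKM, in which the fragments of a gene are divided by its transcript length and the library's size, and ratios are log2((FPKM + 1)/(FPKM + 1)), in which a ratio of at least 1 in size is called 2-fold.

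Corneodesmosomes are the junctions that hold the dead, flattened cells of a cornified layer together. They are desmosomes modified in the last living layers of the epidermis: desmoglein 1 and desmocollin 1, a pair of desmosomal cadherins, bind across the gap between cells, and corneodesmosin, a secreted glycoprotein, is added to the outer face. Shedding of the surface depends on their cleavage by kallikrein-related peptidases, trypsin-like (KLK5, KLK6, KLK8, KLK14) or chymotrypsin-like (KLK7) serine proteases made as inactive precursors. LEKTI, the product of Spink5, inhibits several of these enzymes, and its loss causes the skin disease Netherton syndrome.

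The sequences upstream of the 4 members with the highest ratio of +NFD to +NF are given below, from RefSeq on GRCm38.p6, all on the + strand and ending at the base before the gene's start in the deposited table, whose positions are used throughout (GRCm38). They are shown because these genes had the highest ratios with DBZ in the presence of FGF10 on the log2(FPKM + 1) scale. The choice depends on the pseudocount, since without one Dsc1 at 6.20 and Klk6 at 6.15 on the log2 scale were above Cdsn at 5.41 and Klk14 at 4.87. Capitals mark the letters CCACCC, the core of the box bound by KLF-type factors, and TTGCNNAA, a C/EBP-type motif, on either strand.
Asprv1, chr6:86627924-86628163: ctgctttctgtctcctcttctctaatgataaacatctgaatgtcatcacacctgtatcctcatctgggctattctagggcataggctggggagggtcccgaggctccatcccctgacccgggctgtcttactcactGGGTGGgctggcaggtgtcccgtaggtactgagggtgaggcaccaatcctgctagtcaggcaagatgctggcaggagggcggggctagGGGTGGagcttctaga
Klk7, chr7:43811044-43811293: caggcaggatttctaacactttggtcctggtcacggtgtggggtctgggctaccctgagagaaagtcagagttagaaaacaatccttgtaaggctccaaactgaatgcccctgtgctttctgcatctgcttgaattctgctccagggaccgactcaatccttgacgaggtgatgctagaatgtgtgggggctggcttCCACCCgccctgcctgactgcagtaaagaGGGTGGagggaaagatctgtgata
Cdsn, chr17:35551878-35552127: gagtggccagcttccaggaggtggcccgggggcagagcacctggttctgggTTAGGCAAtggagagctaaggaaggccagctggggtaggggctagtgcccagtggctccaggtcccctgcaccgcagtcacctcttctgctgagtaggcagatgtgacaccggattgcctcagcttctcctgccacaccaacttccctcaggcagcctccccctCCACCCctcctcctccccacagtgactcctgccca
Klk14, chr7:43690168-43690417: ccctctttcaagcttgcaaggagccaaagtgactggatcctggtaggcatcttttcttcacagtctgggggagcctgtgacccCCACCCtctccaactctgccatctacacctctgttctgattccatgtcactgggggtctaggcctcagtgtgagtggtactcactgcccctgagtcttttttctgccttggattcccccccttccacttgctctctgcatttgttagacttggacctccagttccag
All 4 hold CCACCC on at least 1 strand, and Klk7 holds it on both. RefSeq gave 9 windows of 250 bases before a start site for 7 of the members, and 5 of the 9 hold these letters, against 28.1% of 32851 windows of the same length over all genes. TTGCNNAA was found in 1 member window and in 9.56% of all windows. TGGGAA, the core bound by RBPJ, the DNA-binding partner of Notch, was in 1 member window, that of Klk6, and in 21.6% of all windows. TGANTCA of AP-1, AACCNGTT of Grainyhead factors and the TATA box letters TATAAA were in 0 of the 9, and in 6.75%, 1.79% and 12.4% of all windows. These are matches of letters only, in genes chosen after the values were seen.

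Among the structural genes, Cdsn (chr17:35552128-35557180), which encodes corneodesmosin, was at 9.14 FPKM (+N), 247 FPKM (+ND), 2.198 FPKM (+NF) and 93.4 FPKM (+NFD). The media with DBZ were therefore both far above the media without it, and FGF10 went with a lower value at either state of Notch inhibition. The lowest of these values, in +NF, corresponds to about 170 fragments, so that its counting error is small beside these differences. Cdsn ranked 364th among all genes in +ND and 11395th in +NF.

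Dsc1 (chr18:20084703-20114773), which encodes desmocollin 1, was at 2.39 FPKM (+N), 55.3 FPKM (+ND), 0.119 FPKM (+NF) and 8.79 FPKM (+NFD). Its value in +ND was 23.2 times that in +N, and its value in +NFD was 73.7 times that in +NF, where about 14.1 fragments were seen. Dsg1a (chr18:20310811-20343350), 1 of 3 mouse genes for desmoglein 1, was at 4.55 FPKM (+N), 18.8 FPKM (+ND), 0.424 FPKM (+NF) and 3.01 FPKM (+NFD). Dsg1a and Spink5 are the only members with a lower FPKM in +NFD than in +N. For Dsg1a the +N value was 1.51 times the +NFD value, a log2 ratio of -0.47. Of the 50-base stretches of Dsg1a transcripts, 31.6% also occur in Dsg1b and 18.8% in Dsg1c, so the split of fragments among these genes is uncertain. Dsg1b was at 7.54, 31.2, 1.22 and 8.81 FPKM in +N, +ND, +NF and +NFD. The sum of Dsg1a and Dsg1b was 12.1, 50.0, 1.64 and 11.8 FPKM in the same order, which puts +N and +NFD at nearly the same level, and Dsg1c stayed below 0.11 FPKM in all 4 libraries.

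**Figure D1:**
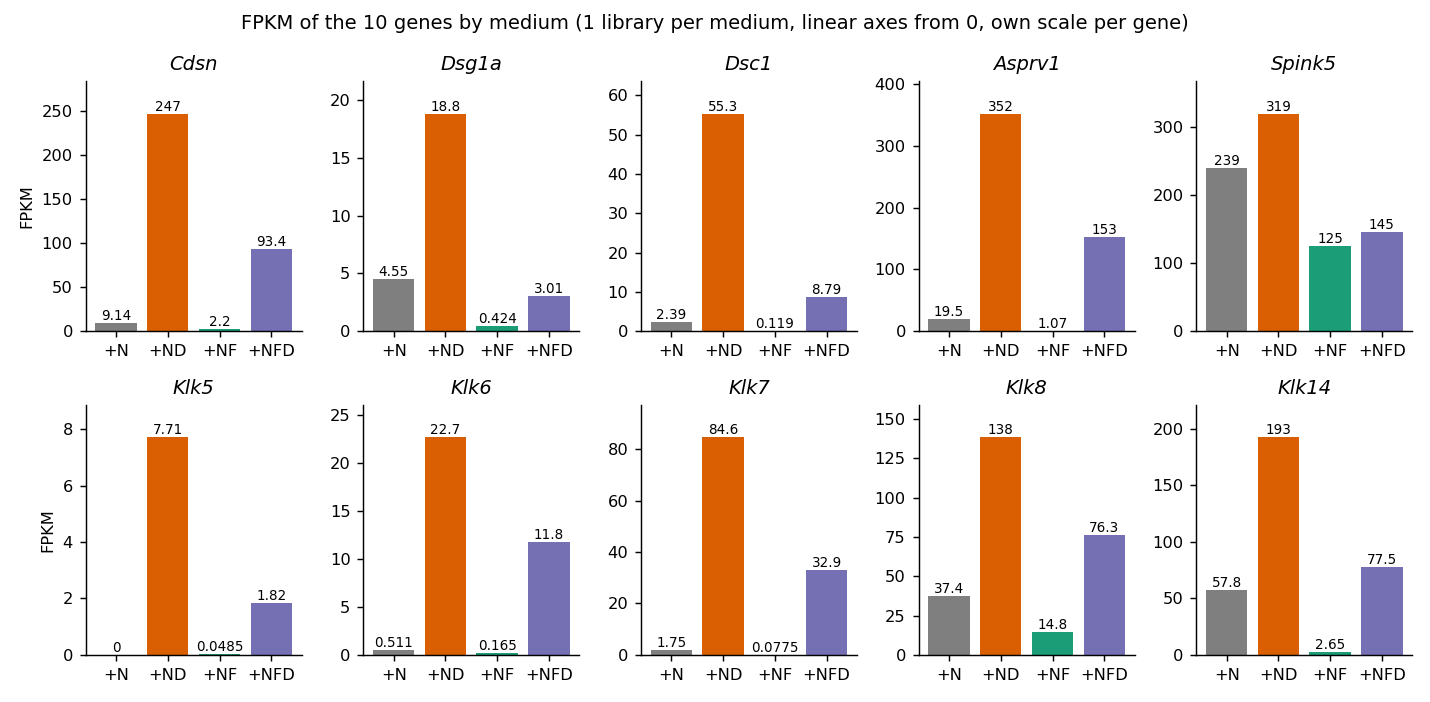
Bars show the FPKM (y axis, linear, a scale of its own for each gene) of the 10 genes in the 4 media (x axis), with 1 library per medium and no error bars. Every gene is highest in +ND, from 7.71 FPKM for Klk5 to 352 for Asprv1, and Spink5 varies least between media.

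Most other desmosomal cadherins differed less between media. On chromosome 18, where Dsc3, Dsc2, Dsc1, Dsg1c, Dsg1a, Dsg1b, Dsg4, Dsg3 and Dsg2 follow each other, Dsc2 was at 396 FPKM (+N), 259 FPKM (+ND), 237 FPKM (+NF) and 201 FPKM (+NFD). Dsg3, the main desmoglein of basal cells, ranged from 135 FPKM (+NFD) to 170 FPKM (+N), and Dsg2 from 35.8 FPKM (+ND) to 48.3 FPKM (+N). Dsc3, also a basal cadherin, was at 55.6, 115, 64.8 and 78.7 FPKM in +N, +ND, +NF and +NFD. Its ratio of +ND to +N, 1.03, exceeds the 2-fold limit by less than the all-gene median of 0.10. Over a list of 14 other desmosome genes, 12 passed the filter in +ND relative to +N, an FPKM of 1 or more in whichever library is higher. Of these, Dsg1b and Dsc3 were 2-fold higher or more and 0 were as much lower, against 5.88% and 5.29% of all genes, with a median ratio of -0.20. Against +NF, +NFD had 12 that passed, with Dsg1b alone 2-fold higher and 0 lower, against 3.72% and 2.69% of all genes, and a median of -0.14. In the remaining comparisons 0 of 12 were 2-fold higher. Dsg1b alone was 2-fold lower in +NF relative to +N, at -1.95, against 2.44% of all genes. Pkp1 alone was so in +NFD relative to +N, at -1.09, against 4.03%. Dsg1b at -1.71 and Perp at -1.03 were so in +NFD relative to +ND, against 3.11%. The plaque genes Jup, Dsp, Pkp1 and Pkp3, which link the cadherins to keratin filaments, were each at 122 FPKM or more in all 4 libraries. The plaque genes Pkp4, at 15.5 to 29.99 FPKM, and Pkp2, at 0.634 to 2.66 FPKM, were lower.

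**Figure D2:**
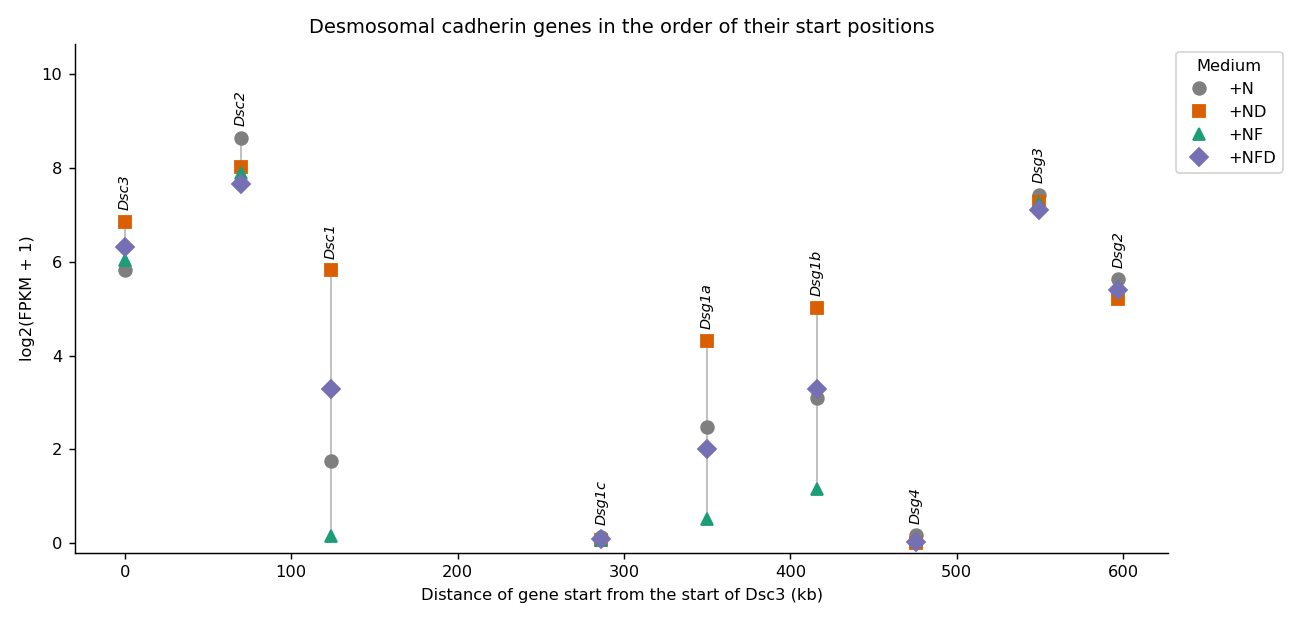
Each point is the level of a desmosomal cadherin gene, as log2(FPKM + 1), in 1 of 4 media, placed by the distance in kb of the gene's start from that of Dsc3, and grey lines join the lowest and highest medium. Dsc1, Dsg1a and Dsg1b spread widely with +ND highest and +NF lowest, while Dsc2, Dsg3 and Dsg2 stay close together.

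All 5 protease members were highest in +ND. Klk14 (chr7:43690418-43695536), an activator of other kallikreins, was at 57.8 FPKM (+N), 193 FPKM (+ND), 2.65 FPKM (+NF) and 77.5 FPKM (+NFD). Klk8 (chr7:43797577-43803826), a protease also known as neuropsin, was at 37.4 FPKM (+N), 138 FPKM (+ND), 14.8 FPKM (+NF) and 76.3 FPKM (+NFD). Klk8 and Klk14 had the highest levels of the 5 in +N, +ND and +NFD, and Klk8 in +NF. Klk8 was the only protease member to stay above 3 FPKM in +NF.

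Klk7 (chr7:43811294-43816359), the chymotryptic enzyme that cleaves corneodesmosin, was at 1.75 FPKM (+N), 84.6 FPKM (+ND), 0.0775 FPKM (+NF) and 32.9 FPKM (+NFD). Its value in +ND was 48.4 times that in +N. The value in +NF stands for about 4.24 fragments, so the ratio of +NFD to +NF, 4.98 on the log2(FPKM + 1) scale, is set largely by the pseudocount. Klk6 (chr7:43824499-43832030), also known as neurosin, was at 0.511 FPKM (+N), 22.7 FPKM (+ND), 0.165 FPKM (+NF) and 11.8 FPKM (+NFD), with about 19.5 fragments in +N and 6.65 in +NF. Klk5 (chr7:43841971-43851181), which can activate itself and then Klk7 and Klk14, was listed at 0 in +N, with 7.71 FPKM (+ND), 0.0485 FPKM (+NF) and 1.82 FPKM (+NFD) in the other libraries. In +N, 3 fragments of Klk5 would be 0.0885 FPKM, and the value in +NF is about 1.74 fragments, so +N and +NF cannot be ranked for this gene. Klk5, Klk6 and Klk7 were thus near or below 2 FPKM in both media without DBZ, and Klk6 and Klk7 were above 10 FPKM in both media with it.

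The make-up of the protease transcripts differed between media. Klk8 and Klk14 together made 97.7% of the summed FPKM of the 5 protease members in +N and 98.4% in +NF, against 74.2% in +ND and 76.8% in +NFD. Klk7 made 1.79% of this sum in +N and 0.436% in +NF, against 19.0% in +ND and 16.4% in +NFD.

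The 5 protease members lie in a row of 10 kallikrein genes, all on the + strand, that spans 161 kb of chromosome 7 from 43690418 to 43851181. The other genes of the row were at 21.01 (Klk13), 40.7 (Klk12), 37.9 (Klk11), 30.2 (Klk10) and 2.84 (Klk9) FPKM in +N. In +ND they were at 48.4, 123, 47.6, 286 and 46.4 FPKM in the same order. Of the 10 genes of the row, 9 were 2-fold higher or more in +ND than in +N, against 5.88% of all genes. The median log2 ratio of the 10 was 2.49, and the exception was Klk11 at 0.32. Between +NFD and +NF the whole row of 10 passed the limit upward, against 3.72% of all genes, with a median of 3.21. Klk5 and Klk6 were below 1 FPKM in +N and +NF, and Klk7 and Klk9 in +NF. Where 1 of these libraries was compared, such genes passed the filter, if at all, through the other library alone. With FGF10 alone, 8 of 8 that passed the filter were 2-fold lower or more, against 2.44% of all genes, with a median of -2.16. With both factors 6 of 10 were 2-fold higher or more than in +N, against 5.85% of all genes, and Klk11 at -0.75 and Klk13 at -0.42 had lower values in +NFD than in +N. The 3 genes at the Klk5 end of the row, Klk7, Klk6 and Klk5, were at no more than 1.75 FPKM in +N, while of the other 7 only Klk9 was below 20 FPKM. The genes on either side were at low and similar levels. Ctu1, 18.4 kb before Klk14, was between 3.73 and 4.83 FPKM in all 4 media, and Klk4 and Klk15, beyond Klk5, stayed below 0.06 FPKM. Klk1 and 13 Klk1b genes farther along were at no more than 0.0391 FPKM in any library. An antisense transcript, 2310002F09Rik, at 4.18, 23.9, 1.82 and 6.27 FPKM in +N, +ND, +NF and +NFD, overlaps Klk9 to Klk13 in full and Klk14 and Klk8 over 328 and 382 nt of their ends. The strand setting of the counting is not given in the sources used here, so reads of these overlaps cannot be told apart by strand. No 50-base stretch was shared between transcripts of the 10 kallikrein genes.

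**Figure D3:**
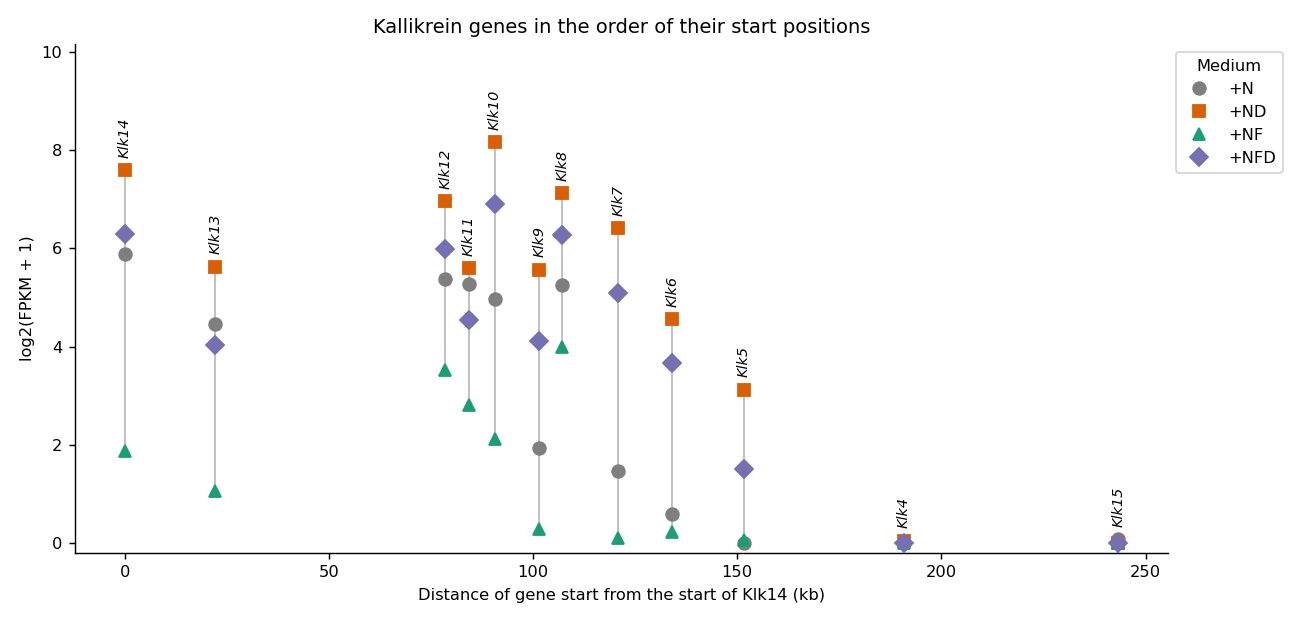
Each point is the level of a kallikrein gene, as log2(FPKM + 1), in 1 of 4 media, placed by the distance in kb of the gene's start from that of Klk14, and grey lines join the lowest and highest medium. From Klk14 to Klk5 the +ND points are the highest, whereas Klk4 and Klk15 are at the bottom of the axis in all 4 media.

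Spink5 (chr18:43963235-44022501), which encodes the inhibitor LEKTI, varied less than any other member. It was at 239 FPKM (+N), 319 FPKM (+ND), 125 FPKM (+NF) and 145 FPKM (+NFD), with 17228 to 33626 fragments per library by the depth steps. Its log2 ratio was 0.42 in +ND relative to +N and 0.22 in +NFD relative to +NF, both inside the 2-fold limit. With FGF10 its log2 ratio was -0.93 without DBZ and -1.13 with it.

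The level of the protease transcripts relative to the inhibitor transcript therefore differed between media. The summed FPKM of the 5 protease members was 97.5 (+N), 446 (+ND), 17.8 (+NF) and 200.3 (+NFD). Divided by Spink5, this gave 0.409 in +N and 0.142 in +NF, where the inhibitor had the higher level, and 1.398 in +ND and 1.38 in +NFD, where the proteases did. The ratio was 3.42 times higher in +ND than in +N and 9.69 times higher in +NFD than in +NF. Between +NFD and +ND it differed by a factor of 0.987. Over all 10 kallikrein genes of the row the ratio to Spink5 was 0.965, 3.13, 0.312 and 3.01 in +N, +ND, +NF and +NFD. Not every kallikrein in these sums need be a target of LEKTI. Klk8 made 38.4%, 31.0%, 83.5% and 38.1% of the 5-gene sum in +N, +ND, +NF and +NFD. These are transcript levels, and neither protein amount nor enzyme activity was measured.

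**Figure D4:**
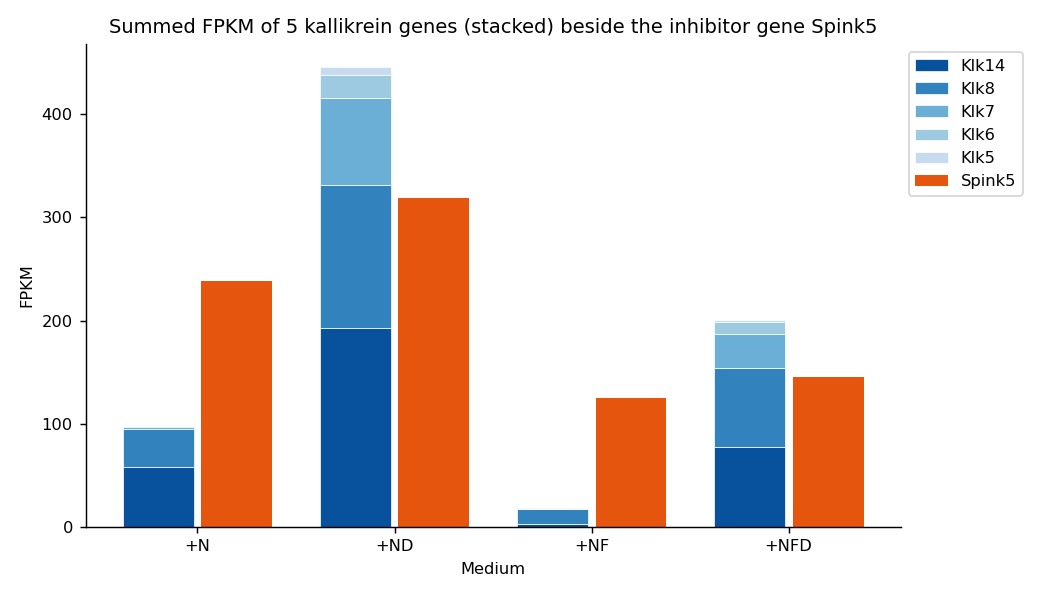
For each medium (x axis) the stacked bar is the summed FPKM of Klk14, Klk8, Klk7, Klk6 and Klk5 and the bar beside it is the FPKM of Spink5 (y axis, linear from 0, 1 library per medium). The stack is lower than Spink5 in +N and +NF and higher in +ND and +NFD.

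Asprv1 (chr6:86628164-86629710) encodes an aspartic protease of the granular layer that processes profilaggrin. It was at 19.5 FPKM (+N), 352 FPKM (+ND), 1.07 FPKM (+NF) and 153 FPKM (+NFD), the widest range among the members in FPKM. The value in +NFD was 143 times that in +NF, where about 47.6 fragments were seen, and the value in +ND was 18.04 times that in +N. Its substrate gene Flg, summed over its entries, was at 8.36, 58.1, 1.28 and 23.3 FPKM in +N, +ND, +NF and +NFD, the same order of media.

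Taking the members together, DBZ without FGF10 (+ND relative to +N) put all 10 through the filter. In this comparison 9 members were 2-fold higher or more and 0 were as much lower, where the shares over all 13173 genes that passed were 5.88% higher and 5.29% lower (4.67% and 6.39% after centring all ratios on their median). The members had a median ratio of 3.55, against 0.10 over all genes. Klk5 and Klk6 were below 1 FPKM in +N, so they passed the filter through +ND alone. A gene listed at 0, as Klk5 in +N, is 2-fold higher by definition once it passes. DBZ with FGF10 (+NFD relative to +NF) is a comparison of the other 2 libraries. Again 9 of 10 members were 2-fold higher or more and 0 lower, against 3.72% and 2.69% of 13349 genes, with a median of 3.29 against 0.048. In both cases the member inside the limit was Spink5. Dsg1a, Dsc1, Klk5, Klk6 and Klk7 were below 1 FPKM in +NF, so they passed the filter through +NFD alone. Both comparisons passed the limit upward for 9 members and for 1.71% of the 13748 genes that reached an FPKM of 1 anywhere.

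The size of the DBZ ratio was not the same in the absence and presence of FGF10 for each member. For Klk14 the log2 ratio was 1.72 without FGF10 and 4.43 with it, and for Asprv1 it was 4.11 and 6.22. Both genes had lower values in +NF than in +N, so that the ratio with FGF10 starts from a lower level. For Klk5, listed at 0 in +N and under 3 fragments in +NF, the order was the reverse, 3.12 and 1.43, and for Dsc1 it was 4.06 and 3.13. For Klk7 they were 4.96 and 4.98, a likeness that depends on the pseudocount, since its values were 48.4 and 424.5 times higher without one, the latter against about 4.24 fragments in +NF. Without a pseudocount the order turns for Dsc1, which was 23.2 and 73.7 times higher, for Dsg1a, with log2 ratios of 1.84 and 1.495 but 4.14 and 7.11 times higher, and for Klk6, with log2 ratios of 3.97 and 3.45 but 44.4 and 71.2 times higher. No test of these differences is possible, as each value rests on a single library.

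**Figure D5:**
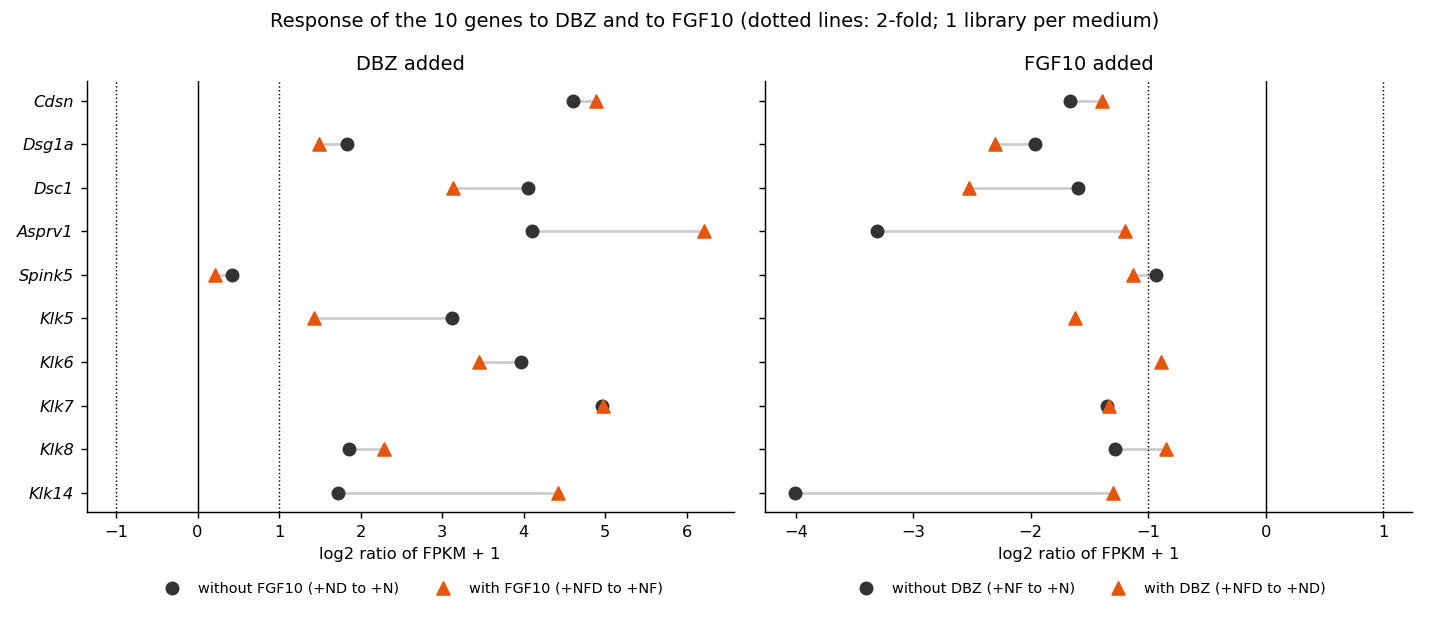
Log2 ratios of FPKM + 1 (x axis) of the 10 genes (y axis) for DBZ added without FGF10 (circles) or with it (triangles), left, and for FGF10 added without DBZ (circles) or with it (triangles), right, with dotted lines at 2-fold. In the left panel every point is above 0 and those of Spink5 alone lie inside the limit. In the right panel every point is below 0, and Klk5 and Klk6 have no circle because they did not pass the filter.

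FGF10 without DBZ (+NF relative to +N) left 8 members above the filter, since Klk5 and Klk6 were below 1 FPKM in both libraries. All 8 were lower in +NF, 7 of them past the limit, against 2.44% of 13090 genes lower and 2.76% higher by as much (3.15% and 1.89% after centring). The log2 ratios ran from -4.01 for Klk14 to -0.93 for Spink5, with a median of -1.63 against 0.12 over all genes. Dsg1a, Dsc1 and Klk7 were below 1 FPKM in +NF and passed the filter through +N alone. With DBZ present (+NFD relative to +ND), all 10 members were lower, 8 of them past the limit, against 3.11% of 13293 genes lower and 3.39% higher by as much (3.81% and 2.60% after centring). The median was -1.32 against 0.094, and Klk6 at -0.89 and Klk8 at -0.85 were inside the limit. The cadherins had the lowest ratios here, -2.52 for Dsc1 and -2.31 for Dsg1a. Both comparisons passed the limit downward for 6 members and for 0.851% of the 13748 genes.

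With both factors (+NFD relative to +N), 7 members were 2-fold higher or more and 0 were as much lower, against 5.85% and 4.03% of 13358 genes (4.04% and 5.35% after centring). The members' median was 1.51 against 0.18. Klk5 and Klk6 were below 1 FPKM in +N and passed the filter through +NFD alone. Klk7, Cdsn, Klk6 and Asprv1 had ratios from 2.91 to 3.63. Klk8, at 1.01, passed the limit, but was at 0.83 after centring. Klk14 at 0.42, Dsg1a at -0.47 and Spink5 at -0.71 were inside it. All 10 members were highest in +ND, as were 30.0% of the 13748 genes, and 9 of 10 were lowest in +NF, as were 15.2%. The full order, with +ND above +NFD, +NFD above +N and +N above +NF, held for 7 members and for 5.21% of genes. Dsg1a and Spink5 had +N above +NFD, and Klk5 was the member whose lowest value was listed in +N.

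Other proteases and inhibitors of cornified layers were mixed in direction. Of 21 genes for upstream and parallel proteases, 17 passed the filter in +ND relative to +N, 2 of them 2-fold higher or more and 4 as much lower, against 5.88% and 5.29% of all genes, with a median ratio of -0.32. St14, which encodes matriptase, an activator of kallikrein precursors, was at 79.00 FPKM (+N), 35.3 FPKM (+ND), 88.7 FPKM (+NF) and 63.03 FPKM (+NFD), so that its order of media was the reverse of that of Klk14 and Klk8. Blmh, bleomycin hydrolase, which degrades filaggrin peptides, was at 375, 136, 300.1 and 142 FPKM in that order, and Ctsh, a cathepsin, was at 254, 87.9, 279.9 and 177. Plat, tissue plasminogen activator, was at 4.005, 13.6, 5.15 and 12.5 FPKM, and Pcsk6, a proprotein convertase, at 4.42, 8.77, 5.41 and 13.5 FPKM. In +NFD relative to +NF, 2 of 16 passed the limit upward and 2 downward, against 3.72% and 2.69% of all genes, with a median of -0.20. Casp14, called higher in +ND relative to +N, was at 0.559 FPKM in +N and passed the filter through +ND alone.

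Of 23 protease inhibitor genes in the table other than Spink5, 17 passed the filter in +ND relative to +N, 7 of them 2-fold higher or more and 5 as much lower, against 5.88% and 5.29% of all genes, with a median of 0.40. Serpinb12 was at 8.63 FPKM (+N), 86.9 FPKM (+ND), 0.293 FPKM (+NF) and 8.699 FPKM (+NFD), and Csta1, a cysteine protease inhibitor, at 47.2, 164, 2.74 and 31.2. Wfdc12 was at 0.149, 12.5, 0.0968 and 2.32 FPKM. Spint1, which encodes an inhibitor of matriptase, went the other way, at 133, 43.4, 93.2 and 58.6 FPKM, and Serpinb3a was at 15.8, 3.03, 0.607 and 0.1696 FPKM. In +NFD relative to +NF, 3 of 13 passed the limit upward and 0 downward, against 3.72% and 2.69% of all genes, with a median of 0.0089. Of the inhibitor genes called higher, Wfdc12, Serpina12 and Spink7 were below 1 FPKM in +N, and Wfdc12 and Serpinb12 in +NF. In those comparisons they passed the filter through the library with DBZ alone. Spink7, listed at 0 in +N, is 2-fold higher by definition once it passes.

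The genes whose 3 log2 ratios to +N lay nearest to those of Cdsn, by Euclidean distance among 8289 genes that reached an FPKM of 10, were Cpa4 at 0.29, Kprp at 0.58, Endou at 0.59, Klk7 at 0.62 and Psors1c2 at 0.80. Cpa4 was at 2.45, 84.7, 0.324 and 29.8 FPKM in +N, +ND, +NF and +NFD. Psors1c2 is on the same strand of chromosome 17 before Cdsn, from 35533201 to 35534647, and was at 1.45, 50.98, 0.133 and 14.7 FPKM. Each of the 5 genes nearest to Cdsn was below 1 FPKM in +NF, where Cdsn was at 2.198 FPKM. Their distances therefore depend on the pseudocount. Without one, the log2 ratio of +NF to +N was -4.49 for Klk7 and -2.06 for Cdsn. Nearest to Klk6 were Lypd5 at 0.23, Il1f5 at 0.54, Vsig8 at 0.63, Sbsn at 0.64 and Lor, the loricrin gene, at 0.67. For Klk6 the ratio of +NF to +N rests on values below 1 FPKM in both libraries, where the pseudocount moves a ratio towards 0, so its likeness to Lor, which was at 12.7 and 13.4 FPKM there, is uncertain. These likenesses rest on 4 libraries.

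Of the layer markers, the granular and cornified sum had the order of media of most members, unlike the suprabasal keratin and basal sums. The summed FPKM of 8 granular and cornified markers was 54.4 (+N), 1548 (+ND), 17.0 (+NF) and 848 (+NFD), and none of these markers is a member. Lce3c alone was at 885 FPKM in +ND. Lor was no lower in +NF, at 13.4 FPKM, than in +N, at 12.7 FPKM. Within that list Flg2 was listed at 0 in +N and +NF and below 0.04 FPKM in the others, and Casp14 was at most 2.49 FPKM, so these genes of an epidermal granular layer were nearly absent. The sum of 4 suprabasal keratins (Krt1, Krt10, Krt4 and Krt13) was 598 (+N), 224 (+ND), 23.6 (+NF) and 52.3 (+NFD). Krt13, Krt10 and Krt4 make up nearly all of this sum outside +ND and had +N as their highest library. Krt1 was instead at 0.3004, 52.2, 0.0123 and 1.07 FPKM in +N, +ND, +NF and +NFD, the order of media of most members. The sum of 5 basal markers was between 12038 in +ND and 20629 in +N. In bulk organoids fewer cells of a type and less RNA per cell cannot be told apart. The part of layer composition in the values of the members was not tested. The dental epithelium marker Odam was at 2602 FPKM or more in all 4 libraries, while Amelx, Ambn and Enam were below 0.35 FPKM outside +NFD. The sum of 7 fibroblast markers was 168, 148, 105 and 427 FPKM in +N, +ND, +NF and +NFD, with +NFD highest, that of 5 macrophage markers was between 32.7 and 57.6, and those of 3 endothelial and 3 melanocyte markers were no higher than 0.307 and 0.802. Their part was not tested. As a check of the treatments, Nrarp, a direct Notch target, was at 18.2, 2.797, 9.12 and 2.60 FPKM, and Hes1 at 157, 74.6, 109 and 80.1, both lower in the media with DBZ than in those without, although 5 of 8 Notch target genes were below 1 FPKM everywhere. Spry1, an FGF feedback inhibitor, was at 4.77, 5.44, 17.9 and 21.7 FPKM, highest in the media with FGF10. Of 8 such feedback genes, 4 were 2-fold higher or more in +NF than in +N, against 2.76% of all genes. In +NFD relative to +ND there were 2, against 3.39%. Etv4 and Etv5 also passed the limit in +ND relative to +N, at 1.04 and 1.09. Spred1 was at 24.9 FPKM in +N and 23.9 FPKM in +NFD.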

How the data were processed

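The authors prepared TruSeq libraries, sequenced them on an Illumina HiSeq, used Trim Galore 0.6.5 for trimming and TopHat 2.1.1 for alignment to GRCm38, and deposited FPKM computed by Cufflinks. Annotation release, strand setting and Cufflinks options are not given in the sources used here. A few abundant transcripts lower the FPKM of all other genes. Of 47493 entries, those with the same symbol (123 symbols) were summed. Ratios had a pseudocount of 1, which understates changes of low genes, and were kept where the higher library reached an FPKM of 1. No test was made.

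Depth came from the step of FPKM times kb per fragment in 8367 genes with 1 GENCODE M21 transcript of 1000 nt or more, and the libraries differed from +N by factors of 0.806 (+ND), 1.06 (+NF) and 1.07 (+NFD). Fragment numbers use the longest transcript and are approximate for Dsc1, Klk5, Klk6 and Klk8, which have several. A level of 3 fragments served as floor, for counting error only. Of 8 housekeeping genes, 0 were listed at 0.

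The members and lists were chosen with earlier results of these data known. Named are the members, the kallikreins of the row, per wider list up to 5 genes past 2-fold in a DBZ comparison that reached an FPKM of 5, and the 5 genes most like Cdsn and Klk6. Other genes (markers, checks of the treatments, cluster neighbours, cadherins and plaque genes) were named after their values were seen. From the inhibitor list 2 genes were not used here. Alternatives were pseudocounts of 0.1 and 0, a filter of 0 or 5 FPKM, scaling to the upper quartile, centring, and the highest entry per symbol. The functions were tested on simulated data. Python 3.11.15, numpy 2.4.6, pandas 2.3.3 and matplotlib 3.10.9 were used.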

Additional observations from a re-analysis of the deposited data

How the results depend on the processing

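The counts of members at least 2-fold higher or lower stayed within 1.5 times under all 7 alternatives in the 5 comparisons, except that with a filter at an FPKM of 5 only 5 members were left in +NF relative to +N, and 4 of them were at least 2-fold lower. At that filter 2.34% of 9897 genes were as much lower. No member ratio past the limit changed sign. The medians depend on the pseudocount: with 0.1 in place of 1 the median was -3.27 in +NF relative to +N, 2.40 in +NFD relative to +N and 5.08 in +NFD relative to +NF, and without a pseudocount it was -3.81 in the first and 5.32 in the last, since several members were below 1 FPKM in +NF. With upper-quartile scaling and with centring, Klk8 fell inside the limit in +NFD relative to +N, at 0.84 and 0.83, and Spink5 passed it in +NF relative to +N, at -1.06 and -1.05. Counts over all genes moved by over 1.5 times with a pseudocount of 0.1, from 774 to 1212 higher in +ND relative to +N, from 361 to 712 higher and 319 to 480 lower in +NF relative to +N, from 782 to 1271 higher in +NFD relative to +N and from 450 to 818 higher in +NFD relative to +ND, and nearly alike without one (1222, 720, 1269 and 829 higher). With a filter at 5 FPKM, the higher genes went from 782 to 488 in +NFD relative to +N, from 497 to 307 relative to +NF and from 450 to 290 relative to +ND. Fewer genes were tested at that filter, 10033 in place of 13358 in the first of these. As shares the changes were smaller, from 5.85% to 4.86%, from 3.72% to 3.04% and from 3.39% to 2.88%. No paired analysis was possible because each medium has 1 library. Values of Klk5, Klk6 and Klk7 in +NF, at under 7 fragments, are limited by depth.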

Other observations

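Genes of cornified-layer proteins, of cytokines and of a protease receptor were looked at as a further list. Whether each of their proteins is cut by these kallikreins was not examined. Lor and Flg of this list are also among the granular and cornified markers. Of 13 such genes, 10 passed the filter in +ND relative to +N, 7 of them 2-fold higher or more and 1 as much lower, against 5.88% and 5.29% of all genes, with a median ratio of 2.34. In +NFD relative to +NF 9 passed, with 5 as much higher and 1 as much lower, against 3.72% and 2.69% of all genes, and a median of 1.33. Hrnr, called higher in +ND relative to +N, was at 0.0242 FPKM in +N and passed the filter through +ND alone. Rptn, which encodes repetin of the cornified envelope, was at 13.8 FPKM (+N), 681 FPKM (+ND), 1.09 FPKM (+NF) and 244 FPKM (+NFD), the same order of media as Cdsn. Tchh, trichohyalin, was at 23.8, 111, 21.6 and 55.8 FPKM, and Lor, loricrin, at 12.7, 219.6, 13.4 and 164, so that for both the values in +N and +NF lay close together.

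The gene that was at least 2-fold lower in both was F2rl1, which encodes PAR2, a receptor that KLK5 can activate by cleavage. It was at 25.2 FPKM (+N), 8.52 FPKM (+ND), 24.9 FPKM (+NF) and 9.03 FPKM (+NFD), so the libraries with DBZ had the lower level of this receptor gene. Its values in +N and +NF lay close together, where the summed FPKM of the 5 protease members was 97.5 and 17.8. The same held for +ND and +NFD, where that sum was 446 and 200.3. A link between this gene and the kallikreins was not tested. Tslp, a cytokine of keratinocytes known as a downstream product of that receptor, was at 2.37, 67.4, 2.03 and 6.81 FPKM. Its value in +ND stood far above the other 3. F2rl1 was singled out after its values were seen.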
